A study of Arabidopsis thaliana with 18 samples.

Results

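The 10 aliphatic glucosinolate genes described here are 3 regulators (MYB28, MYB29 and MYB76), 4 genes of side-chain elongation (BCAT4, BAT5, MAM1 and MAM3) and 3 genes of core structure formation (CYP79F1, CYP79F2 and CYP83A1). They were chosen by gene identifier from the 27655 genes counted in each library, with earlier results of these data known. All 10 were found. Their transcripts were measured by 3' tag sequencing of total RNA from whole rosette leaves of Arabidopsis thaliana, a method that reads a short stretch near the 3' end of each transcript. The plants were 32 days old and came from 3 genotypes. JAR1-OE overexpresses JAR1.1, and its libraries hold reads of a YFP-JAR1 entry; the labels name no promoter for it and do not say how many transgenic lines it stands for. jar1-11 is described in the labels as a knockdown line of JAR1, and WT is Col-0. JAR1 encodes the enzyme that conjugates jasmonic acid to isoleucine, which makes the active form of the hormone jasmonate. All plants had water for the first 18 days. Drought plants then had none for 14 days, while control plants stayed watered. Each of the 6 groups (JAR1-OE drought, JAR1-OE control, jar1-11 drought, jar1-11 control, WT drought and WT control) had 3 libraries. In the labels these are biological replicates, with nothing on whether single plants or pools were used, and a p-value here speaks only of how far the libraries spread.

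Glucosinolates are sulfur-rich defence compounds of the mustard family, and the aliphatic ones are made from methionine. In Arabidopsis leaves, BCAT4 first removes the amino group of methionine, the transporter BAT5 brings the resulting oxo acid into the chloroplast, and the MAM enzymes add carbon to the side chain there. Cytochrome P450 enzymes of the CYP79F and CYP83A kinds then start the core structure, and the transcription factors MYB28, MYB29 and MYB76 are known to switch the pathway on together with the jasmonate-responsive MYC factors.

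The genes lie on 4 chromosomes of TAIR10.1. MYB28 (AT5G61420) occupies chr5:24689069-24691187 on the minus strand. MYB29 (AT5G07690, chr5:2446669-2448584) and MYB76 (AT5G07700, chr5:2450027-2451807) are neighbours on the plus strand of the same chromosome, and so are MAM1 (AT5G23010, chr5:7703041-7706973) and MAM3 (AT5G23020, chr5:7718118-7721866). CYP79F2 (AT1G16400, chr1:5605044-5607498) and CYP79F1 (AT1G16410, chr1:5608682-5612064) form another tandem pair on the plus strand. BCAT4 (AT3G19710, chr3:6846969-6849582) and CYP83A1 (AT4G13770, chr4:7990429-7992429) are on minus strands, and BAT5 (AT4G12030, named BASS5 in the deposited tables, chr4:7210807-7213376) is on a plus strand. The coding sequences of CYP79F1 and CYP79F2 were 91.2% identical, those of MAM1 and MAM3 79.0%, and those of MYB29 and MYB76 71.4%. None of the 451 stretches of 50 bases (the read length) in the last 500 transcript bases of any of the 10 genes occurred more than once in the genome, although 115 stretches of MAM3 and 76 of BCAT4 span an exon junction.

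The 300 bases before the annotated start were read from the RefSeq TAIR10.1 genome and are shown for 4 genes. MYB28 and CYP83A1 are shown because they held motif matches, the first as a regulator and the second as an enzyme of core structure formation. MYB29 is shown because its drought course had opposite directions, and MAM1 as a gene of side-chain elongation. Capitals mark matches to 3 motifs on either strand, namely the G-box CACGTG, which MYC factors are known to bind, the ABRE core ACGTG, which the G-box contains, and the MYB AC element ACCNAC.
MYB28, chr5:24691188-24691487, minus strand: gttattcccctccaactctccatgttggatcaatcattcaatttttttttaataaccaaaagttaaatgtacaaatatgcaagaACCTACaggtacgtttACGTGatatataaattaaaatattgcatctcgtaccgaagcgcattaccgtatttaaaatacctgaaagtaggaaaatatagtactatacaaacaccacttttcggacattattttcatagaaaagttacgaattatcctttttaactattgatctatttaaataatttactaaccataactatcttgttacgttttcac
MYB29, chr5:2446369-2446668, plus strand: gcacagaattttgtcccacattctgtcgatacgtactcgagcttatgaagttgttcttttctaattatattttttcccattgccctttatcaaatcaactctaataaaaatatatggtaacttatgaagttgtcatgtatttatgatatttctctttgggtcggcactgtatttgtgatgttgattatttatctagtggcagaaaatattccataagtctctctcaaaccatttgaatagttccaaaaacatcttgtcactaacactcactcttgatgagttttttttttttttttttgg
MAM1, chr5:7702741-7703040, plus strand: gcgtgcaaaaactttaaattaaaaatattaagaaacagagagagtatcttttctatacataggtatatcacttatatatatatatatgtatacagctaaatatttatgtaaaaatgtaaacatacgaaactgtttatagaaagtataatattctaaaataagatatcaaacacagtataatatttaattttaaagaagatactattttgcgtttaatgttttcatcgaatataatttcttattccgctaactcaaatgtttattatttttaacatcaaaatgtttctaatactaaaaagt
CYP83A1, chr4:7992430-7992729, minus strand: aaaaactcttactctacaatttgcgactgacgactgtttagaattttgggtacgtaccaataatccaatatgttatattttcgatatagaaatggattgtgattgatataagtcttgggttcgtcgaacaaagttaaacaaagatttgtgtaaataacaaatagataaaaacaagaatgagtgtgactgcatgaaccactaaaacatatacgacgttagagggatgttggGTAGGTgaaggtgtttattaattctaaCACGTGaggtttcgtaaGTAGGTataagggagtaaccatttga
The G-box occurred in the window of 1 of the 10 genes, CYP83A1, where it began 43 bases before the start, and in 7.1% of 27443 windows of the same length over the genome. The ABRE core occurred in 4 of the 10 and in 25.6% of all windows, and the MYB AC element in 5 of the 10 and in 27.2% of all windows. The windows of MYB29 and MAM1 held none of these letters. These shares describe letters and say nothing of binding.

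Library totals ran from 4716155 to 9506727 reads, so that 3 reads equalled 0.316 to 0.636 CPM of the unscaled totals. The CPM of genes is the count relative to library size scaled by TMM. All 10 genes passed the filter on low counts, as did 17678 of the 27655 genes. The JAR1 entry was lower in jar1-11 than in WT in both conditions. In JAR1-OE it did not pass against WT, with log2 fold changes of 0.03 ± 0.21 under drought (adjusted p = 0.957) and -0.10 ± 0.21 with water (adjusted p = 0.814, edgeR quasi-likelihood test). YFP-JAR1 reads, counted as an entry of their own, ran from 26 to 558 in the 6 JAR1-OE libraries and were 0 in the other 12. The library at 26 was JAR1-OE drought 2, which had 173 reads of JAR1. All 4 leaf mesophyll markers were detected in every group; their summed level was lowest in jar1-11 drought (1200 to 2240 CPM), where CA1 was at 4.92 to 9.45 CPM, and highest in JAR1-OE control (23000 to 27800 CPM). The 5 root markers together stayed at or below 12.6 CPM. The 4 drought markers RD29A, RAB18, P5CS1 and HB7 rose under drought in all 3 genotypes. Their summed level under drought was 5040 to 8010 CPM in JAR1-OE, 60600 to 71900 CPM in jar1-11 and 23100 to 46100 CPM in WT. RAB18 held the largest part of each of these sums. Under drought 4 of 4 were lower in JAR1-OE than in WT, beside 1033 of 17678 genes tested. Between jar1-11 and WT 0 of 4 passed (edgeR quasi-likelihood test), beside 2942 higher and 3163 lower genes. The part of these marker differences in the results was not tested. Flower markers were present in some rosette libraries: their summed level was 12.5 to 40.8 CPM in JAR1-OE drought, reached 40.8 CPM in 1 WT drought library (replicate 1) while the other 2 were at or below 0.302 CPM, and was at most 5.75 CPM in every other group.

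The summed level of the 10 genes was higher under drought in JAR1-OE and lower in the other genotypes. Summed over the 10 genes, JAR1-OE held 749, 844 and 787 CPM under drought, against 500, 604 and 597 CPM with water. In jar1-11 the sums were 96.1, 38.8 and 126 CPM under drought, against 624, 709 and 653 CPM with water. The WT sums were 291, 244 and 150 CPM under drought, against 837, 769 and 849 CPM with water. The drought libraries thus lay above all controls in JAR1-OE and below all controls in jar1-11 and WT. BCAT4 made up the largest share of the JAR1-OE sum. The other 9 genes together held 402, 495 and 431 CPM in JAR1-OE drought, against 314, 400 and 372 CPM in JAR1-OE control, so the groups were barely apart without it. The sum does not stand for each gene, since MYB28, MAM3 and CYP79F2 had lower means in JAR1-OE drought than in JAR1-OE control. In bulk leaf RNA, fewer cells of a type and less RNA per cell cannot be told apart.

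Counted by gene, drought raised 5 of the 10 genes and lowered 1 in JAR1-OE, lowered 9 and raised 0 in jar1-11, and lowered 9 and raised 0 in WT (edgeR quasi-likelihood test, Benjamini-Hochberg adjusted p under 0.05). The corresponding shares of all genes tested were 14.1% higher and 15% lower in JAR1-OE, 28.7% higher and 29.7% lower in jar1-11, and 18.1% higher and 21.1% lower in WT. The median log2 fold change of the 10 genes was 0.55 in JAR1-OE, -2.96 in jar1-11 and -1.77 in WT, beside 0.01, -0.01 and -0.01 over all genes tested. MYB29, BCAT4, BAT5 and CYP79F1 were the 4 genes that rose in JAR1-OE and fell in both other genotypes. Leaving out any 1 of a genotype's libraries kept the counts of 9 in jar1-11 and WT. In JAR1-OE the count of raised genes fell below 5 whichever library was left out. It was 2 without control 1, control 3 or drought 2, and 3 without control 2, drought 1 or drought 3, while the count of lowered genes was 1, or 2 without drought 2.

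**Figure D1:**
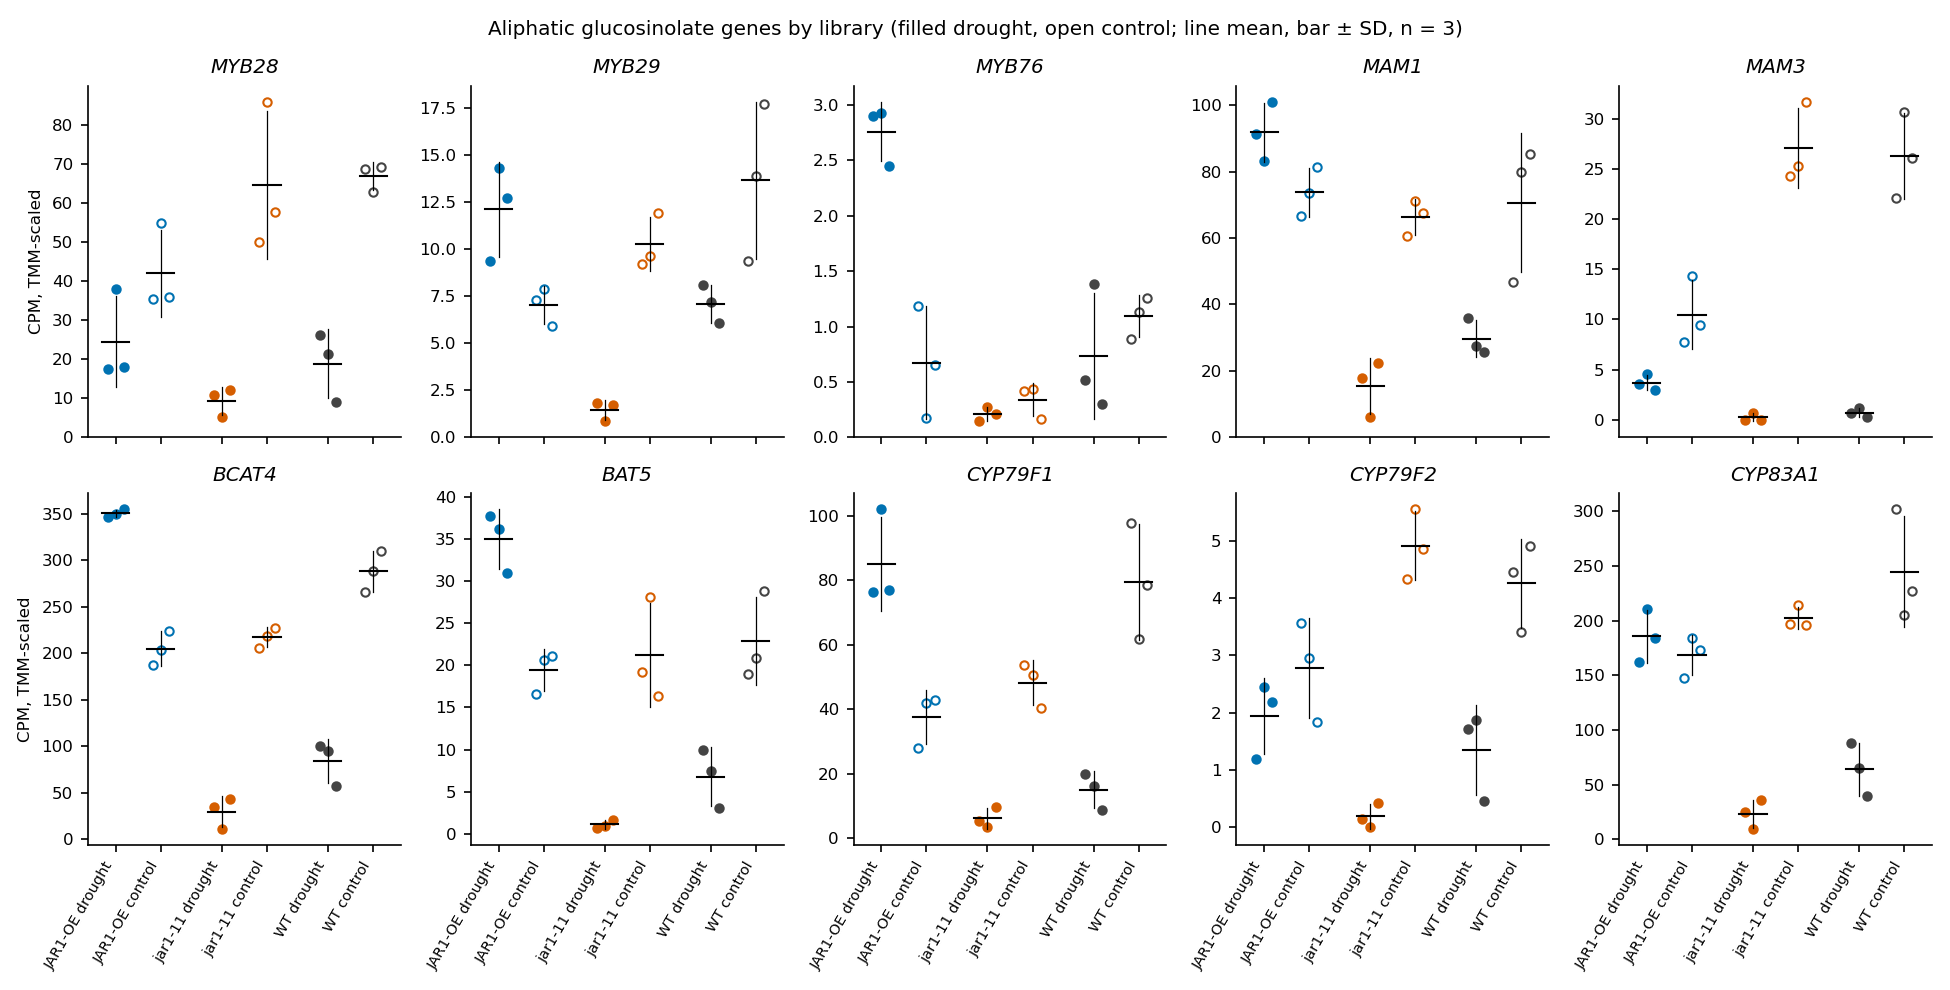
Level of each of the 10 genes in every library, in TMM-scaled CPM from 0 on a linear axis that differs between panels; filled points are drought and open points control libraries, lines are means and bars SD (n = 3). BCAT4 stood at 347 to 355 CPM in JAR1-OE drought, above all other libraries, and at 11.4 to 42.7 CPM in jar1-11 drought, below all others.

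MYB28 is the main regulator of the pathway, and it fell in WT and jar1-11 without passing the test in JAR1-OE. It had 17.4, 38 and 18 CPM in JAR1-OE drought, against 35.3, 54.9 and 35.9 CPM in JAR1-OE control. It had 10.7, 5.16 and 12 CPM in jar1-11 drought, against 50, 85.9 and 57.8 CPM in jar1-11 control. It had 26.2, 21.2 and 9.05 CPM in WT drought, against 68.7, 62.9 and 69.1 CPM in WT control. The conditions overlapped in JAR1-OE, through the single drought library at 38 CPM, and lay apart in jar1-11 and WT. The log2 fold change was -2.82 ± 0.38 (SE) in jar1-11 (adjusted p = 4.86e-06) and -1.83 ± 0.36 in WT (adjusted p = 4.73e-04), and in JAR1-OE it was -0.79 ± 0.35 (adjusted p = 0.102; edgeR quasi-likelihood test). Without the JAR1-OE drought library at 38 CPM (replicate 2), MYB28 passed in JAR1-OE as well, at -1.24 (adjusted p = 0.0196).

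MYB29, the jasmonate-responsive partner of MYB28, changed in all 3 genotypes and in opposite directions. Its level was 9.35, 14.3 and 12.7 CPM in JAR1-OE drought, against 7.27, 7.84 and 5.9 CPM in JAR1-OE control. jar1-11 gave 1.79, 0.814 and 1.68 CPM under drought, against 9.21, 9.64 and 11.9 CPM with water. WT gave 8.05, 7.16 and 6.03 CPM under drought, against 9.37, 13.9 and 17.7 CPM with water. In none of the genotypes did the conditions overlap. MYB29 rose by 0.79 ± 0.25 on the log2 scale in JAR1-OE (adjusted p = 0.0242), and its change was -2.86 ± 0.32 in jar1-11 (adjusted p = 3.70e-07) and -0.96 ± 0.25 in WT (adjusted p = 0.00517, edgeR quasi-likelihood test). The rise in JAR1-OE did not pass without control 1, control 3, drought 2 or drought 3 of that line (adjusted p = 0.0547, 0.104, 0.0968 and 0.0682).

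MYB76, the third and accessory regulator, was close to the limit of counting in most libraries. JAR1-OE had 2.9, 2.93 and 2.45 CPM under drought, against 1.19, 0.174 and 0.656 CPM with water. The jar1-11 libraries had 0.149, 0.271 and 0.21 CPM under drought, from 4 reads in all, against 0.414, 0.438 and 0.168 CPM with water, from 8 reads. WT had 0.514, 1.38 and 0.302 CPM under drought, against 0.892, 1.13 and 1.26 CPM with water. Only the JAR1-OE drought libraries stood clear, above all 15 others. The log2 fold change was 1.97 ± 0.53 in JAR1-OE (adjusted p = 0.00862), whereas -0.68 ± 0.84 in jar1-11 (adjusted p = 0.501) and -0.53 ± 0.58 in WT (adjusted p = 0.494) did not pass the edgeR quasi-likelihood test at this depth.

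BCAT4, which opens chain elongation by deaminating methionine, rose in JAR1-OE and fell in the other genotypes. It reached 347, 350 and 355 CPM in JAR1-OE drought, against 187, 204 and 224 CPM in JAR1-OE control. In jar1-11 it was at 34.9, 11.4 and 42.7 CPM under drought, against 206, 219 and 227 CPM with water. In WT it was at 99.9, 94.8 and 57 CPM under drought, against 266, 289 and 310 CPM with water. No genotype showed overlap between its conditions. The log2 fold change was -2.89 ± 0.31 in jar1-11 (adjusted p = 2.64e-07) and -1.78 ± 0.29 in WT (adjusted p = 8.43e-05). In JAR1-OE it was 0.77 ± 0.29, just past the threshold (adjusted p = 0.0482, edgeR quasi-likelihood test), and this call was lost with RLE scaling (adjusted p = 0.0537), with the replicate number as a block (adjusted p = 0.0628) and without any 1 of the 6 JAR1-OE libraries (adjusted p = 0.0819 to 0.140).

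BAT5, the plastid transporter of the oxo acids, also rose in JAR1-OE and fell in the other genotypes. It had 37.7, 36.2 and 30.9 CPM in JAR1-OE drought, against 16.6, 20.6 and 21.1 CPM in JAR1-OE control. It was nearly gone in jar1-11 drought, with 0.746, 0.95 and 1.68 CPM, against 19.2, 28.1 and 16.3 CPM in jar1-11 control. Its WT values were 9.94, 7.41 and 3.02 CPM under drought, against 19, 20.9 and 28.8 CPM with water. Again no conditions overlapped. BAT5 was 19.4-fold lower under drought in jar1-11 (log2 fold change -4.28 ± 0.40, adjusted p = 3.61e-08) and 3.40-fold lower in WT (-1.77 ± 0.30, adjusted p = 1.30e-04). It was 1.80-fold higher in JAR1-OE (0.85 ± 0.28, adjusted p = 0.0264, edgeR quasi-likelihood test), a call that was lost without any 1 of JAR1-OE control 1, 2 or 3 or drought 1 or 2 (adjusted p = 0.0536 to 0.104).

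MAM1 and MAM3 encode the methylthioalkylmalate synthases that add carbon to the side chain, and MAM3 is known for the longest chains. MAM1 had 91.3, 83.1 and 101 CPM in JAR1-OE drought, against 66.5, 73.5 and 81.3 CPM in JAR1-OE control. In jar1-11 the MAM1 level was 17.8, 6.24 and 22.5 CPM under drought, against 60.5, 71.2 and 67.4 CPM with water. In WT the MAM1 level was 36, 27.4 and 25.6 CPM under drought, against 46.6, 79.9 and 85.2 CPM with water. The conditions lay apart in each genotype, but the JAR1-OE difference was small, at 0.32 ± 0.28 on the log2 scale (adjusted p = 0.434), beside -2.12 ± 0.31 in jar1-11 (adjusted p = 9.95e-06) and -1.26 ± 0.29 in WT (adjusted p = 0.00208, edgeR quasi-likelihood test).

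MAM3 gave the steepest drop of the set and was the 1 gene that fell in all 3 genotypes. JAR1-OE had 3.56, 4.56 and 2.99 CPM of MAM3 under drought, against 7.72, 14.3 and 9.44 CPM with water. In jar1-11 drought it was 0, 0.679 and 0 CPM, from 5 reads in 1 library, against 24.3, 25.3 and 31.7 CPM in jar1-11 control. WT had 0.685, 1.13 and 0.302 CPM under drought, against 22.1, 30.7 and 26.1 CPM with water. The drought libraries lay below the controls everywhere, and the JAR1-OE controls lay below those of WT and jar1-11. The log2 fold change was -1.50 ± 0.34 in JAR1-OE (adjusted p = 0.00256), -6.59 ± 0.49 in jar1-11 (adjusted p = 2.28e-09) and -5.14 ± 0.42 in WT (adjusted p = 1.64e-08, edgeR quasi-likelihood test), which for WT is a 35.3-fold lower level under drought.

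CYP79F1, the cytochrome P450 that turns chain-elongated methionine into aldoximes, rose in JAR1-OE drought under every alternative tried. Its values were 76.3, 102 and 76.8 CPM in JAR1-OE drought, against 27.9, 42 and 42.9 CPM in JAR1-OE control. The jar1-11 values were 5.22, 3.53 and 9.66 CPM under drought, against 53.6, 50.6 and 40.4 CPM with water. The WT values were 20, 16.3 and 8.75 CPM under drought, against 97.7, 61.9 and 78.5 CPM with water. The conditions never overlapped within a genotype, and the JAR1-OE drought libraries reached the range of the WT controls. The gene was 2.26-fold higher under drought in JAR1-OE (log2 fold change 1.18 ± 0.28, adjusted p = 0.00376), 8.14-fold lower in jar1-11 (-3.02 ± 0.33, adjusted p = 2.79e-07) and 5.28-fold lower in WT (-2.40 ± 0.30, adjusted p = 3.57e-06, edgeR quasi-likelihood test).

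CYP79F2, the tandem copy known for long-chain substrates, did not share this rise. It had 1.19, 2.45 and 2.18 CPM in JAR1-OE drought, against 3.56, 2.96 and 1.84 CPM in JAR1-OE control. In jar1-11 drought it had 0.149, 0 and 0.42 CPM, from 3 reads in all, against 4.34, 5.55 and 4.86 CPM in jar1-11 control, from 109 reads. In WT it had 1.71, 1.88 and 0.452 CPM under drought, against 4.46, 3.4 and 4.91 CPM with water. The conditions overlapped in JAR1-OE and lay apart in jar1-11 and WT. The pooled level was 30.4-fold lower under drought in jar1-11 (95% counting interval 10.1 to 149.9; adjusted p = 4.37e-06 by edgeR's quasi-likelihood test), and the log2 fold change was -1.63 ± 0.46 in WT (adjusted p = 0.00858) and -0.52 ± 0.45 in JAR1-OE (adjusted p = 0.420).

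CYP83A1, which oxidises the aldoximes in the next step, differed between conditions in JAR1-OE by less than the spread between libraries and fell in the other genotypes. It had 162, 211 and 184 CPM in JAR1-OE drought, against 148, 184 and 173 CPM in JAR1-OE control, with overlap. In jar1-11 it had 24.6, 9.77 and 35.7 CPM under drought, against 197, 214 and 196 CPM with water. In WT it had 87.7, 65.2 and 39.5 CPM under drought, against 302, 205 and 227 CPM with water. Both of these pairs of groups lay apart. The log2 fold change was 0.14 ± 0.30 in JAR1-OE (95% interval -0.45 to 0.74, adjusted p = 0.769), -3.13 ± 0.34 in jar1-11 (adjusted p = 2.55e-07) and -1.93 ± 0.32 in WT (adjusted p = 7.76e-05, edgeR quasi-likelihood test).

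**Figure D2:**
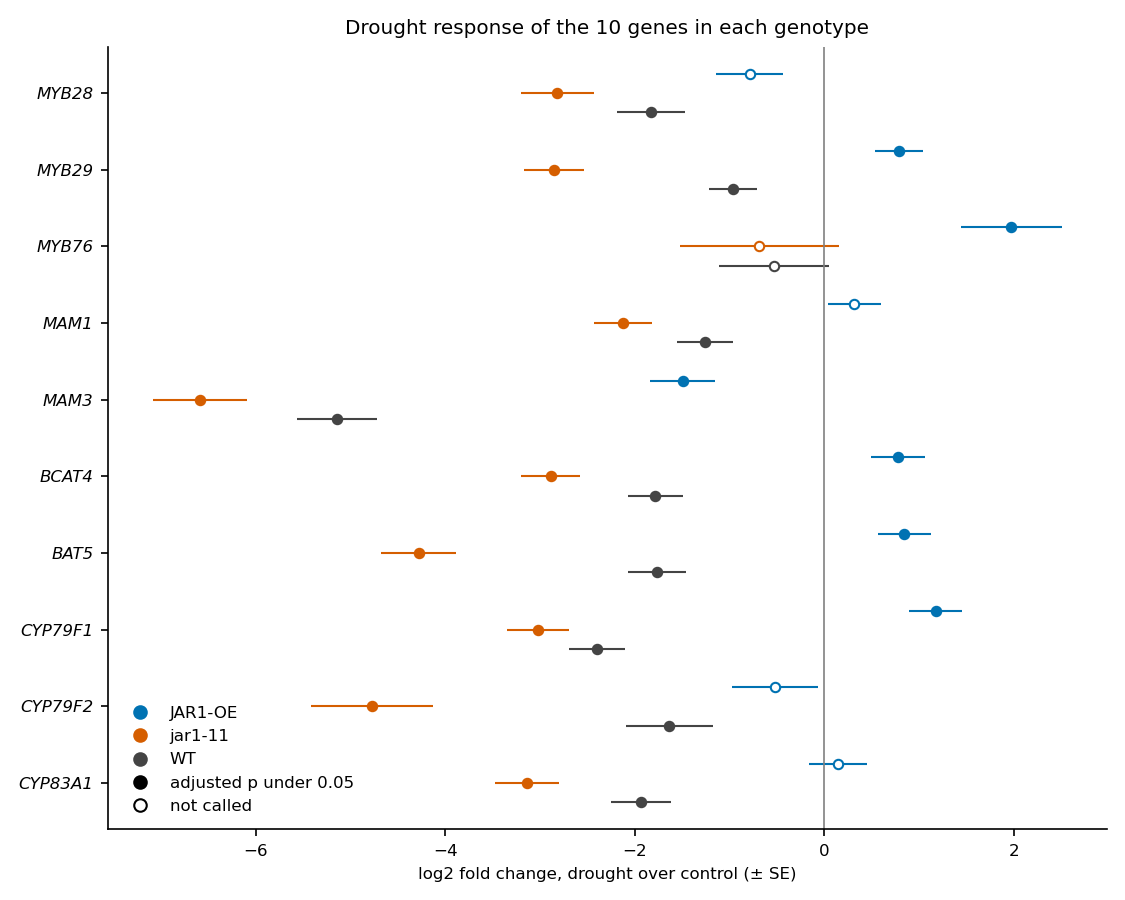
Log2 fold change of drought over control ± SE for the 10 genes in JAR1-OE, jar1-11 and WT, from 3 libraries a group; filled points passed an adjusted p of 0.05. For all 10 genes the jar1-11 point lies left of the WT point and the JAR1-OE point right of it. The share of all genes in this order is not given here. Tested as differences of response from WT, 3 of the 10 passed for jar1-11 and 7 for JAR1-OE. The MYB76 difference between jar1-11 and WT turned its sign in some settings. The CYP79F2 point of jar1-11 rests on 3 drought reads.

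The difference between the drought responses was itself tested, as an interaction of genotype and condition. The response of JAR1-OE exceeded that of WT for 7 of the 10 genes (4.25% of all genes tested were higher in this comparison), with a median of 2.29 beside 0.03 over all genes. MAM3 and CYP79F1 differed most, by 3.65 ± 0.56 (adjusted p = 9.92e-04) and 3.58 ± 0.41 (adjusted p = 8.11e-05) on the log2 scale, followed by BAT5 at 2.61 ± 0.41, BCAT4 at 2.56 ± 0.41, CYP83A1 at 2.07 ± 0.44, MYB29 at 1.75 ± 0.36 and MAM1 at 1.57 ± 0.41 (adjusted p = 0.0280, edgeR quasi-likelihood test). For MAM3 this difference is between a smaller and a larger fall. The MAM1 call was lost without WT control 3, WT drought 2 or 3, any 1 JAR1-OE control, or JAR1-OE drought 1 or 3 (adjusted p = 0.0536 to 0.0756). MYB28 (1.04 ± 0.50, adjusted p = 0.214), MYB76 (2.51 ± 0.79, adjusted p = 0.0661) and CYP79F2 (1.11 ± 0.65, adjusted p = 0.318) did not pass. MYB76 did pass with limma-voom (2.88, adjusted p = 0.0311) and without WT drought 2 (3.39, adjusted p = 0.0366).

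In jar1-11 the fall was steeper than in WT for 3 of the 10 genes, against 8.63% of all genes with a lower response. These were BAT5 (log2 difference -2.52 ± 0.52, adjusted p = 0.00449), MYB29 (-1.89 ± 0.41, adjusted p = 0.00625) and CYP79F2 (adjusted p = 0.0200, edgeR quasi-likelihood test), which rests on 3 reads in jar1-11 drought and was lost without WT drought 2 (adjusted p = 0.0574) or jar1-11 drought 2 (adjusted p = 0.0774). The median over the 10 genes was -1.15, beside -0.02 over all genes. BCAT4 (-1.10 ± 0.41, adjusted p = 0.0750) and CYP83A1 (-1.20 ± 0.44, adjusted p = 0.0710) lay near the threshold. MAM3 passed without jar1-11 drought 2 (adjusted p = 0.0370), which leaves jar1-11 drought libraries with 0 MAM3 reads. Without WT drought 3 or without jar1-11 drought 3 the count was 5, and so it was with limma-voom; without WT drought 2 it was 2. Both of these differences use the same WT libraries. Between the altered lines, the response of JAR1-OE exceeded that of jar1-11 for 9 of the 10 genes (17.4% of all genes), with a median of 3.65 beside 0.04, and MYB76 at 2.66 ± 1.01 was the exception (adjusted p = 0.0523). MYB76 passed here with total-read scaling, with only the groups compared, with limma-voom, and without jar1-11 control 3 or JAR1-OE control 1 (adjusted p = 0.0291 to 0.0493).

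With water, few calls were made. Of the 10 genes, 0 passed between jar1-11 and WT by edgeR's quasi-likelihood test, where 0.00566% of all genes were called. By DESeq2 and by limma-voom 0 passed as well, with no share of all genes given here. In edgeR 2 of the 10 had an unadjusted p under 0.05, beside 976 of 17678 genes tested. The median was -0.19, beside -0.01 over all genes. JAR1-OE stood below WT for 3 of the 10 genes with water (4.96% of all genes were lower), with a median of -0.65 beside 0.01. These were MAM3 (log2 fold change -1.34 ± 0.30, adjusted p = 0.00966), CYP79F1 (-1.08 ± 0.28, adjusted p = 0.0220) and MYB29 (-0.98 ± 0.25, adjusted p = 0.0205). None of the 3 passed without JAR1-OE control 1 or without JAR1-OE control 3 (adjusted p = 0.0552 to 0.124). CYP79F1 was lost as well without WT control 1 (adjusted p = 0.0811) and MYB29 without WT control 3 (adjusted p = 0.0838) or with only the groups compared (adjusted p = 0.0526). MAM3 was also lower in JAR1-OE than in jar1-11 (-1.37 ± 0.30, adjusted p = 0.00700), as 1 of 10 genes beside 3.88% of all genes, and this call was lost without JAR1-OE control 1.

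Under drought the genotypes stood far apart. JAR1-OE exceeded WT in 8 of the 10 genes (10.1% of all genes were higher), with a median of 1.73 beside 0.01. CYP79F1 was 5.66-fold higher in JAR1-OE (log2 fold change 2.50 ± 0.30, adjusted p = 2.14e-05), BAT5 5.16-fold (2.37 ± 0.30, adjusted p = 3.72e-05), MAM3 4.95-fold and BCAT4 4.18-fold. MYB28 at 0.37 ± 0.36 (adjusted p = 0.549) and CYP79F2 at 0.49 ± 0.49 (adjusted p = 0.559, edgeR quasi-likelihood test) did not pass. MYB29 (0.77 ± 0.25, adjusted p = 0.0439) was lost with total-read scaling (adjusted p = 0.0916), with the replicate block (adjusted p = 0.0614), with only the groups compared (adjusted p = 0.0529) and without any 1 WT drought library or JAR1-OE drought 2 or 3 (adjusted p = 0.0574 to 0.170). MYB76 (1.83 ± 0.52, adjusted p = 0.0211) was lost without WT drought 1 or 3 or JAR1-OE drought 1 or 2 (adjusted p = 0.0592 to 0.128). The count was 6 without WT drought 1, without WT drought 3 or without JAR1-OE drought 2, since both calls were then lost. WT drought 1 is the WT library with flower markers, and the JAR1-OE drought libraries hold them too; their part in the result was not tested.

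jar1-11 stood below WT in 8 of the 10 genes under drought, beside 17.9% of all genes, with a median of -1.49 beside -0.04. BAT5 was 6.20-fold lower in jar1-11 (log2 fold change -2.63 ± 0.43, adjusted p = 2.09e-04) and MYB29 5.02-fold lower (-2.33 ± 0.33, adjusted p = 6.32e-05). CYP79F2 had 3 reads in jar1-11 against 28 in WT, a pooled level 8.60-fold lower with a 95% counting interval of 2.66 to 44.2. MAM3 (-1.41 ± 0.80, adjusted p = 0.182) and MYB76 (-1.76 ± 0.75, adjusted p = 0.0776, edgeR quasi-likelihood test) did not pass, both at 16 reads or fewer in each group. Without jar1-11 drought 2, the library that held all 5 MAM3 reads, MAM3 passed (adjusted p = 0.0161), and without WT drought 3 MYB76 passed (-2.12, adjusted p = 0.0413). MYB28 (adjusted p = 0.0451) was lost with the replicate number as a block (adjusted p = 0.0599), with limma-voom (adjusted p = 0.0743), with only the groups compared (adjusted p = 0.0864) and without WT drought 1 or 2 or jar1-11 drought 1 or 2 (adjusted p = 0.0553 to 0.210). MAM1 (-0.96 ± 0.31, adjusted p = 0.0217) was lost with only the groups compared (adjusted p = 0.0832) and without WT drought 1 (adjusted p = 0.0827) or jar1-11 drought 2 (adjusted p = 0.0900). The count was 5 when only the groups compared were fitted. JAR1-OE exceeded jar1-11 under drought in 10 of the 10 genes (28.2% of all genes), with a median of 3.50 beside 0.02, and the largest fitted difference was that of BAT5 (32.0-fold, adjusted p = 1.52e-08).

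Ordered by mean level over the 6 groups, jar1-11 drought was lowest for all 10 genes. JAR1-OE drought was highest for MYB76, MAM1, BCAT4, BAT5 and CYP79F1, and WT control or jar1-11 control for the other 5. The second-ranked group overlapped with the highest for MYB28, MYB29, MAM3, CYP79F1, CYP79F2 and CYP83A1. At the low end, jar1-11 drought overlapped with the group above it for MYB28, MYB76, MAM3 and CYP79F1 and stood apart for the other 6 genes. The share of all genes with such overlaps was not computed.

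Leaf mesophyll markers did not run in parallel with the summed level of the 10 genes in JAR1-OE. Their summed level was 12700 to 17700 CPM in JAR1-OE drought and 23000 to 27800 CPM in JAR1-OE control, with 3 of 4 markers lower under drought. The jar1-11 sums were 1200 to 2240 CPM under drought and 9240 to 12800 CPM with water, with 4 of 4 lower, and the WT sums were 4920 to 6070 CPM under drought and 10200 to 13000 CPM with water, with 3 of 4 lower. In jar1-11 and WT these marker calls stood beside 9 of 10 genes that fell, and in JAR1-OE beside 5 of 10 that rose. Of all genes tested, 15% fell in JAR1-OE, 29.7% in jar1-11 and 21.1% in WT. The part of the markers in the results was not tested.

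Ratios of gene pairs within a library show whether related genes kept their proportion to each other. The log2 ratio of MAM3 to MAM1 reads averaged -4.62 ± 0.44 in JAR1-OE drought and -2.85 ± 0.43 in JAR1-OE control, -6.24 ± 2.74 in jar1-11 drought and -1.30 ± 0.20 in jar1-11 control, and -5.39 ± 0.80 in WT drought and -1.39 ± 0.32 in WT control (SD, n = 3). All drought libraries lay below all controls of their genotype (exact permutation p = 0.1 each, two-sided, the smallest that 3 against 3 libraries can give). The jar1-11 drought libraries held 0, 5 and 0 MAM3 reads, so the ratios at 0 reads depend on the 0.5 added reads. The ratio of CYP79F2 to CYP79F1 differed between drought and control by -1.71 in JAR1-OE and -1.57 in jar1-11 (exact permutation p = 0.1 each) and by 0.64 in WT (exact permutation p = 0.2). In jar1-11 this rests on 1, 0 and 2 CYP79F2 reads in the drought libraries. For MYB29 to MYB28 the difference was 1.62 in JAR1-OE and 1.05 in WT (exact permutation p = 0.1 each) and -0.003 in jar1-11 (exact permutation p = 1). For CYP79F1 to CYP83A1 it was 1.05 in JAR1-OE and -0.47 in WT (exact permutation p = 0.1 each) and 0.23 in jar1-11 (exact permutation p = 0.4). With 3 libraries a group none of these 12 tests could pass 0.05, before or after adjustment.

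**Figure D3:**
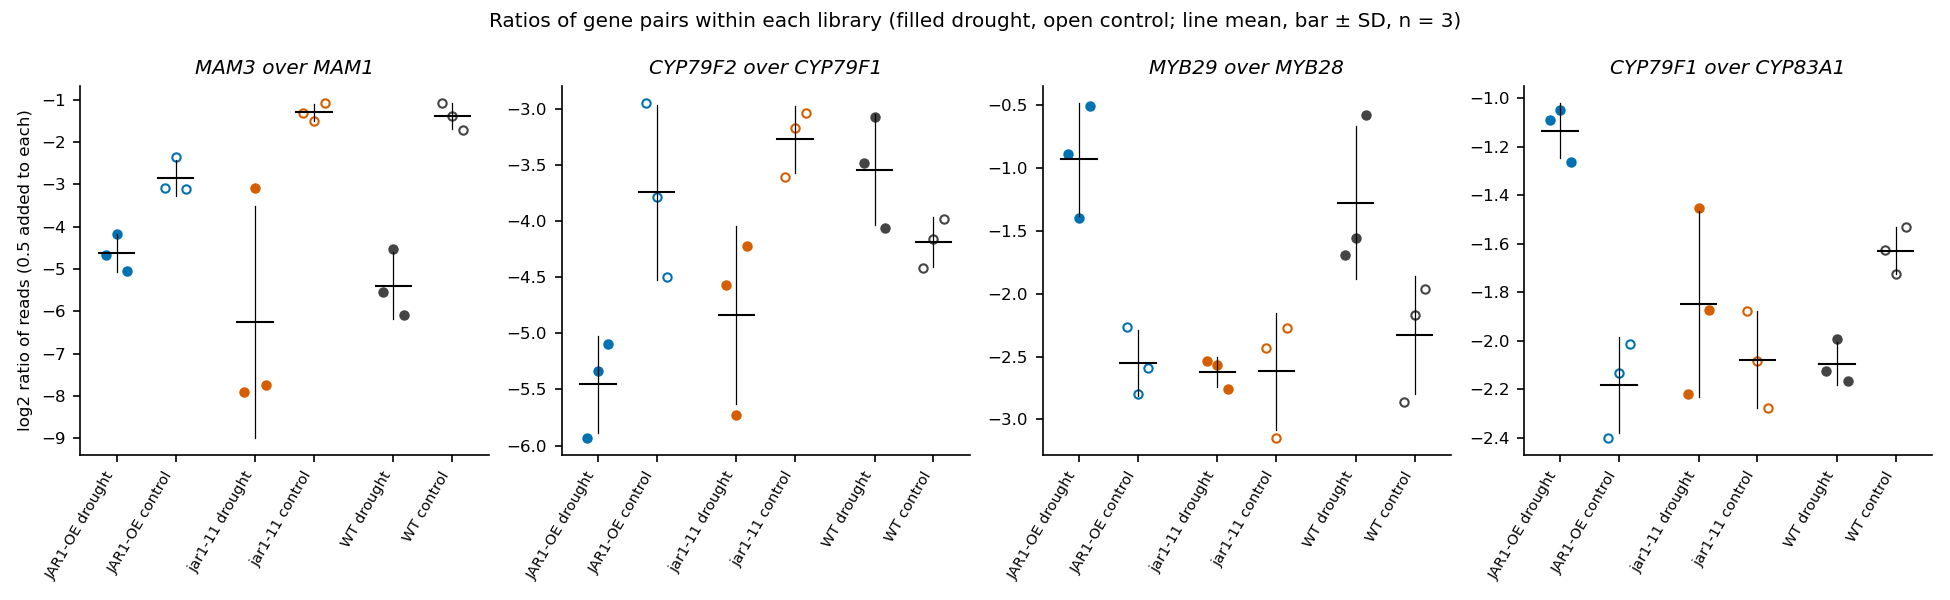
Log2 ratio of reads of 4 gene pairs within each library (0.5 reads added to each gene), with means and SD (n = 3); filled points are drought and open points control. The ratio of MAM3 to MAM1 lies lower in the drought libraries of each genotype, and that of MYB29 to MYB28 lies higher in the drought libraries of JAR1-OE and WT alone.

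The pathway's other chain elongation genes gave mostly falls in jar1-11 and WT and a single rise in JAR1-OE. Of 6 tested genes, 1 rose and 0 fell in JAR1-OE, 1 rose and 5 fell in jar1-11, and 0 rose and 4 fell in WT under drought, with medians of -0.16, -2.04 and -1.33. Of all genes tested, 14.1% rose and 15% fell in JAR1-OE, 28.7% and 29.7% in jar1-11, and 18.1% and 21.1% in WT. IPMI-SSU3, a small subunit of the isomerase that acts after the MAM enzymes, had 19.9, 15.8 and 14.6 CPM in JAR1-OE drought, against 9.5, 9.06 and 13.8 CPM in JAR1-OE control. It had 1.19, 0.136 and 0.63 CPM in jar1-11 drought, against 16.5, 16.8 and 11.4 CPM in jar1-11 control. It had 4.97, 4.39 and 1.51 CPM in WT drought, against 21, 15.7 and 22.9 CPM in WT control. The log2 fold change of this gene was 0.63 ± 0.31 in JAR1-OE (adjusted p = 0.138), -4.51 ± 0.46 in jar1-11 (adjusted p = 1.24e-07) and -2.45 ± 0.35 in WT (adjusted p = 1.60e-05, edgeR quasi-likelihood test). IPMDH1, the dehydrogenase of the elongation cycle, changed by -3.42 ± 0.25 in jar1-11 and -2.32 ± 0.23 in WT, and BCAT3, a plastid aminotransferase, by -1.45 ± 0.15 in jar1-11 and -1.02 ± 0.15 in WT. Neither passed in JAR1-OE, where IPMI-LSU1, the shared large subunit, rose by 0.60 ± 0.13.

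Other genes of core structure formation numbered 7, of which 2 rose and 0 fell in JAR1-OE, 0 rose and 5 fell in jar1-11, and 0 rose and 3 fell in WT. Beside them, 14.1% of all genes rose and 15% fell in JAR1-OE, 28.7% and 29.7% in jar1-11, and 18.1% and 21.1% in WT. The risers in JAR1-OE were the glutathione transferase gene GSTF11 (log2 fold change 0.96 ± 0.34, adjusted p = 0.0402) and the sulfotransferase gene SOT17 (0.76 ± 0.27, adjusted p = 0.0425, edgeR quasi-likelihood test). The GSTF11 call was lost with DESeq2 (adjusted p = 0.0597), with the replicate block (adjusted p = 0.0595) and without any 1 JAR1-OE library but drought 3. The SOT17 call was lost without any 1 JAR1-OE library but control 2. GSTF11 and GSTU20, another glutathione transferase gene, both changed by -2.95 in jar1-11, and in WT GSTU20 changed by -1.55 ± 0.34. The glucosyltransferase gene UGT74C1 fell in jar1-11 (-1.61 ± 0.25) and WT (-1.28 ± 0.24). SUR1 and GGP1, which also serve the indolic branch, did not pass in any genotype.

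Genes of side-chain modification did not share 1 course. Of 7 tested, 3 rose and 1 fell in JAR1-OE, 2 rose and 2 fell in jar1-11, and 2 rose and 2 fell in WT. Shares of all genes were 14.1% higher and 15% lower in JAR1-OE, 28.7% and 29.7% in jar1-11, and 18.1% and 21.1% in WT. AOP3, BZO1 and SCPL17 did not pass the filter, and AOP2 had no entry among the genes counted. FMOGS-OX1, an S-oxygenase, had log2 fold changes of 0.33 ± 0.31 in JAR1-OE (adjusted p = 0.469), -4.11 ± 0.48 in jar1-11 (adjusted p = 6.64e-07) and -2.40 ± 0.38 in WT (adjusted p = 5.39e-05). The related FMOGS-OX4 rose in all 3, by 2.82 ± 0.38 in JAR1-OE, 3.27 ± 0.34 in jar1-11 and 2.53 ± 0.34 in WT. GS-OH, which hydroxylates the side chain, rose in jar1-11 by 3.45 ± 0.38 (adjusted p = 3.17e-07) and did not pass in JAR1-OE (0.61 ± 0.35) or WT (0.88 ± 0.35, adjusted p = 0.0517, edgeR quasi-likelihood test).

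Sulfate activation supplies the sulfotransferases of the pathway. Of its 8 tested genes, 1 rose and 0 fell in JAR1-OE, 1 rose and 5 fell in jar1-11, and 0 rose and 7 fell in WT. Over all genes, 14.1% rose and 15% fell in JAR1-OE, 28.7% and 29.7% in jar1-11, and 18.1% and 21.1% in WT. APK1, an APS kinase gene, had log2 fold changes of 0.82 ± 0.24 in JAR1-OE (adjusted p = 0.0149), -1.40 ± 0.25 in jar1-11 (adjusted p = 1.10e-04) and -0.76 ± 0.25 in WT (adjusted p = 0.0192). The APK1 call was lost in JAR1-OE without control 1, control 3 or drought 1, and in WT without control 3 or drought 3 or with only the groups compared (adjusted p = 0.0516 to 0.124). APK2 fell in jar1-11 (-2.34 ± 0.32) and WT (-1.98 ± 0.31) and was at 0.27 ± 0.29 in JAR1-OE (adjusted p = 0.526, edgeR quasi-likelihood test). APR1, an APS reductase gene, changed by 1.14 ± 0.31 in jar1-11 and by -1.24 ± 0.32 in WT, the first of which was lost without jar1-11 drought 2 (adjusted p = 0.0702).

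**Figure D4:**
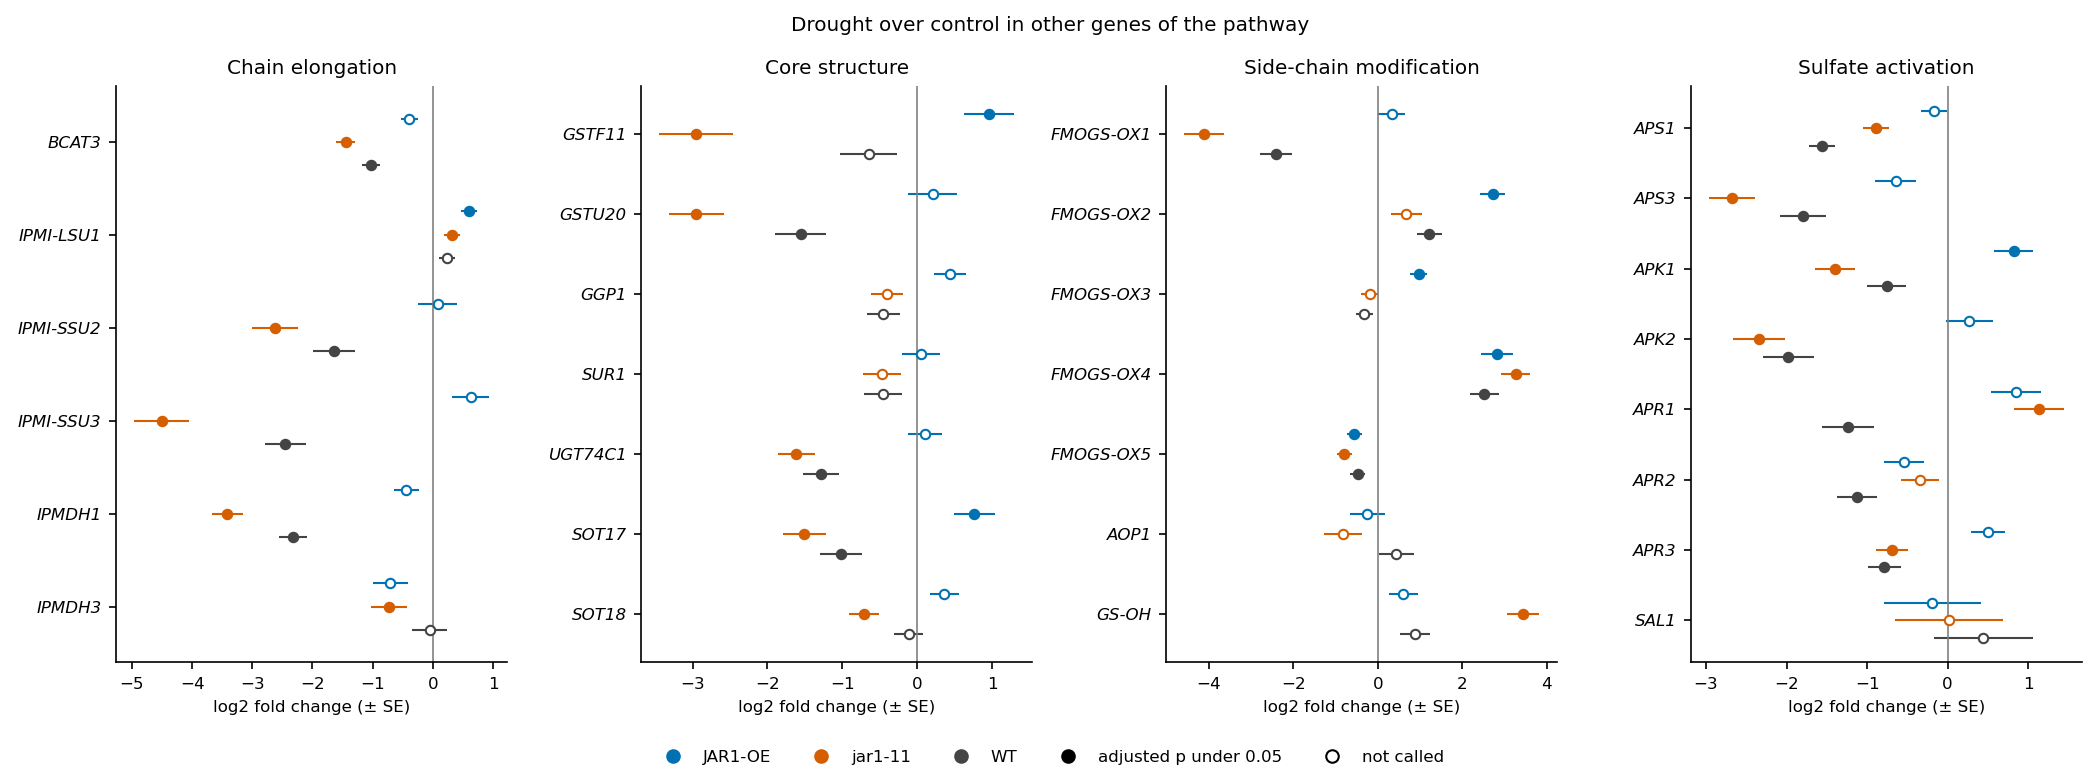
Log2 fold change of drought over control ± SE (n = 3 libraries a group) for the tested genes of 4 lists in JAR1-OE, jar1-11 and WT; filled points passed an adjusted p of 0.05. In chain elongation IPMI-SSU3 spans 0.63 in JAR1-OE to -4.51 in jar1-11, whereas FMOGS-OX4 lies right of 0 in each genotype.

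Among the 9 regulators outside the MYB trio, 5 rose and 0 fell in JAR1-OE, 1 rose and 4 fell in jar1-11, and 2 rose and 2 fell in WT under drought. For all genes the shares were 14.1% higher and 15% lower in JAR1-OE, 28.7% and 29.7% in jar1-11, and 18.1% and 21.1% in WT. MYC4, a partner of the MYB factors, had 49.1, 68.1 and 49.5 CPM in JAR1-OE drought, against 37.4, 38.1 and 37 CPM in JAR1-OE control. It had 13.4, 9.77 and 13 CPM in jar1-11 drought, against 51, 64.3 and 59.7 CPM in jar1-11 control. It had 36.1, 34.5 and 25.2 CPM in WT drought, against 106, 61.9 and 61.1 CPM in WT control. Its conditions lay apart in every genotype, upward in JAR1-OE (log2 fold change 0.57 ± 0.21, adjusted p = 0.0489) and downward in jar1-11 (-2.28 ± 0.23, adjusted p = 9.67e-08) and WT (-1.25 ± 0.21, adjusted p = 1.11e-04, edgeR quasi-likelihood test). The MYC4 rise in JAR1-OE was lost with RLE scaling, without the filter, with the replicate block, with DESeq2 and without any 1 JAR1-OE library (adjusted p = 0.0522 to 0.215).

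MYC5, another MYC factor, rose in all 3 genotypes and was the 1 regulator of this list that rose in jar1-11. It had 3.82, 4.56 and 2.86 CPM in JAR1-OE drought, against 0 reads in JAR1-OE control, which is at least 24.8-fold higher by pooled reads with a floor of 3 reads over the group. It had 4.62, 3.26 and 3.99 CPM in jar1-11 drought, against 4 reads in all in jar1-11 control (log2 fold change 4.38 ± 0.69, adjusted p = 4.34e-05). It had 4.28, 3.64 and 4.37 CPM in WT drought, against 3 reads in all in WT control (4.48 ± 0.73, adjusted p = 1.20e-04, edgeR quasi-likelihood test). MYC5 levels thus lay close together in the drought libraries of the 3 genotypes.

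MYC2, the best-known jasmonate transcription factor, took another course than MYC4 in WT. Its values were 339, 190 and 222 CPM in JAR1-OE drought, against 92.7, 113 and 111 CPM in JAR1-OE control. In jar1-11 they were 44, 45.1 and 48.5 CPM under drought, against 49.1, 48.1 and 47.8 CPM with water, and in WT 145, 167 and 71.9 CPM under drought, against 57.1, 68.4 and 83.4 CPM with water. The groups overlapped in jar1-11 and in WT. MYC2 rose by 1.25 ± 0.25 in JAR1-OE (adjusted p = 8.23e-04) and by 0.88 ± 0.25 in WT (adjusted p = 0.00840; lost without WT drought 2, adjusted p = 0.0632), and was at -0.08 ± 0.25 in jar1-11 (adjusted p = 0.811, edgeR quasi-likelihood test). Thus MYC2 rose in WT drought, where 9 of the 10 pathway genes fell.

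SDI2, related to SDI1, which is known to restrain MYB28, rose in JAR1-OE, where 5 of the 10 pathway genes rose, 1 fell and MYB28 did not pass. It had 38.5, 42.7 and 32 CPM in JAR1-OE drought, against 12, 12 and 14.8 CPM in JAR1-OE control, without overlap (log2 fold change 1.54 ± 0.21, adjusted p = 1.90e-05). In jar1-11 it had 16.3, 21.6 and 17.9 CPM under drought, against 26.5, 28.6 and 28.8 CPM with water (-0.59 ± 0.20, adjusted p = 0.0193; lost without drought 1 or drought 3). In WT it had 23.8, 21.1 and 19.2 CPM under drought, against 40.6, 22.6 and 22.7 CPM with water (-0.41 ± 0.20, adjusted p = 0.118, edgeR quasi-likelihood test). The JAR1-OE drought libraries overlapped with 1 WT control library alone among the other groups. MYC3 rose in JAR1-OE by 0.49 ± 0.13 and the jasmonate receptor gene COI1 did not pass in any genotype. SLIM1, a regulator of the sulfur deficiency response, fell in WT (-0.99 ± 0.26), and its response in jar1-11 exceeded that in WT by 1.38 ± 0.36 (adjusted p = 0.0155, edgeR quasi-likelihood test). IQD1 and SDI1 fell in jar1-11, with log2 fold changes of -1.54 ± 0.38 and -2.54 ± 0.76.

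**Figure D5:**
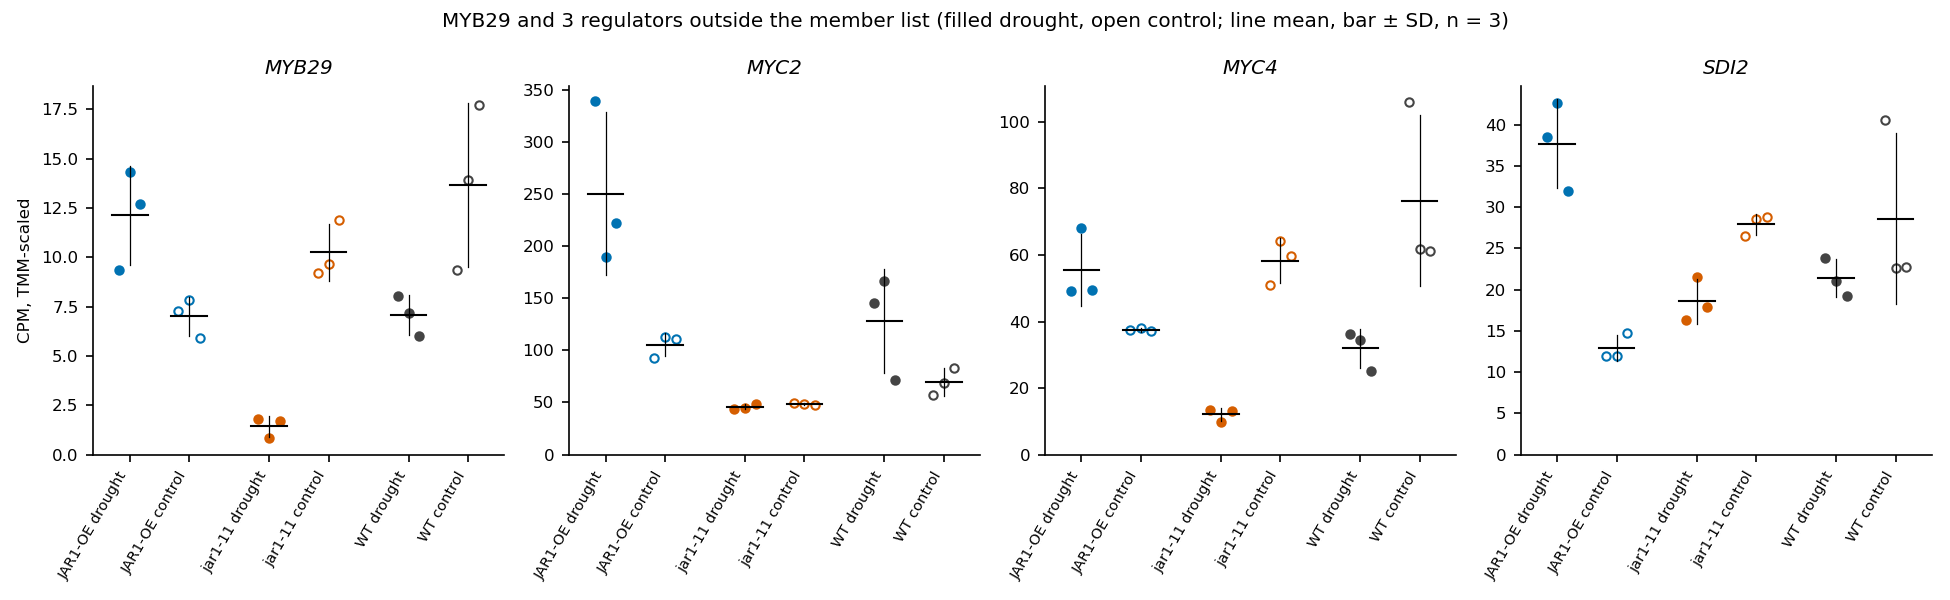
Level of MYB29, MYC2, MYC4 and SDI2 in every library, in TMM-scaled CPM from 0, with means and SD (n = 3); filled points are drought and open points control. MYC4 and MYB29 lie lower under drought in jar1-11 and WT and higher in JAR1-OE, and MYC2 reaches 190 to 339 CPM in JAR1-OE drought.

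Likeness of pattern was described by Pearson's r of log2 CPM over the 18 libraries, which share their 6 groups, so that it mostly restates the group means. Within the 10 genes, r was highest between MAM1 and BCAT4 (0.975) and lowest between MYB28 and MYB76 (0.151). Outside them, the nearest gene to MAM1 was IPMI-SSU2 (r = 0.971), with FMOGS-OX1 next (0.968). The nearest to BCAT4 was MLP43 (0.978), with AK3 (0.976) and IPMI-SSU3 (0.975) close behind, and the nearest to CYP79F1 was AK3 (0.974), followed by UGT74C1 (0.964). CYP83A1 lay nearest to DJ1F (0.991), BAT5 to AT1G28400 (0.982) and LOX2 (0.981), MAM3 to AT1G65190 (0.984), MYB28 to ALN (0.970), CYP79F2 to CLASP (0.968), MYB29 to KIN2 (0.953) and MYB76 to AT4G10390 (0.877).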

How the data were processed

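Transcripts of 18 libraries, 6 groups of 3, were analysed, with groups taken from the labels. Per the file headers the deposited values are counts, the whole numbers of unique reads per gene; library preparation and sequencing with reads of 50 bases follow the labels' protocols. For the aligner, the read counter, the strand setting and the genome build, no entry is given in the sources used here. Of the identifiers, 27444 were found in TAIR10.1, and 27443 of these had the same length there. The 1 further entry per file, YFP-JAR1, was kept out of totals and tests.

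Counts were filtered (filterByExpr), scaled by TMM and fitted over all 18 libraries, giving each group its own mean (edgeR 4.0.16 under R 4.3.3). For 12 contrasts a quasi-likelihood F-test gave p-values, adjusted by Benjamini-Hochberg over all 17678 genes tested (9977 were not tested) and a threshold of 0.05. The biological coefficient of variation was 19.8%. A chi-square test of the counts of each of 18 replicate pairs gave 5.54 to 27.88 per degree of freedom. None therefore looked like 1 preparation sequenced again, but separate preparations of the same plants cannot be recognised this way. Pairs with WT control 1 gave 26.81 and 27.88, beside 6.53 for the remaining WT control pair. Pairs with jar1-11 drought 2 gave 23.29 and 20.58, beside 5.72 for the remaining jar1-11 drought pair. Intervals of pooled reads are exact 95% intervals and cover counting error only. Ratios used 0.5 added reads and two-sided exact permutation tests.

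The members and lists were chosen with earlier results of these data known. Named were all 10 members, up to 3 genes with the smallest p per list and drought contrast or difference of response, and the 3 genes most alike to each member. COI1, SDI1 and some genes of the other lists, also in the figures, fall outside this rule and were named after their values were seen. Positions and promoter windows come from RefSeq TAIR10.1; 1 window is not reported here. The counts and fold changes of the 10 genes were recomputed in all contrasts, and those of the other lists in the drought contrasts (a choice made after seeing the data), with DESeq2 1.42.0, with limma 3.58.1 (voom), with RLE scaling, without the filter, with only the groups compared, with a replicate block, without each library of those groups and, chosen after seeing the data, total-read scaling; ratios and correlations were not recomputed.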

Additional observations from a re-analysis of the deposited data

Results flagged for a closer look

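The drought response differed between genotypes for 19 of 30 gene and genotype comparisons, each by a test of the difference itself (edgeR quasi-likelihood interaction, adjusted p under 0.05). Between JAR1-OE and WT the log2 differences were 1.75 for MYB29, 1.57 for MAM1, 3.65 for MAM3, 2.56 for BCAT4, 2.61 for BAT5, 3.58 for CYP79F1 and 2.07 for CYP83A1. Between JAR1-OE and jar1-11 they were 2.03 for MYB28, 3.65 for MYB29, 2.44 for MAM1, 5.09 for MAM3, 3.66 for BCAT4, 5.13 for BAT5, 4.20 for CYP79F1, 4.25 for CYP79F2 and 3.28 for CYP83A1. Between jar1-11 and WT they were -1.89 for MYB29, -2.52 for BAT5 and -3.14 for CYP79F2. The fitted differences of CYP79F2 rest on 3 reads in jar1-11 drought. That of MAM3 between JAR1-OE and jar1-11 rests on 5 reads there, all in 1 library. The MAM1 difference between JAR1-OE and WT was lost when any 1 of several libraries was left out. Of all genes tested, 4.25% were higher between JAR1-OE and WT, 17.4% higher between JAR1-OE and jar1-11, and 8.63% lower between jar1-11 and WT. These comparisons share libraries, so the 30 are not separate tests.

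The YFP-JAR1 entry, which no comparison used, had 26 to 558 reads in the 6 JAR1-OE libraries, against 0 in the 12 other libraries. The highest and the lowest of these libraries were both drought libraries of JAR1-OE (replicates 1 and 2).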

How the results depend on the processing

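When 1 library of the groups compared was left out at a time, the number of the 10 genes called was 3 to 4 for drought in JAR1-OE, 9 to 9 in jar1-11 and 9 to 9 in WT. With water it was 0 to 3 for JAR1-OE against WT, 0 to 1 for JAR1-OE against jar1-11 and 0 to 0 for jar1-11 against WT. Under drought it was 6 to 7, 10 to 10 and 6 to 9 for the same pairs. For the differences of response it was 6 to 7 for JAR1-OE and WT, 9 to 10 for JAR1-OE and jar1-11 and 2 to 5 for jar1-11 and WT. Fitting only the groups compared gave 5 for jar1-11 against WT under drought, where MYB28 and MAM1 were among the calls lost. For the difference of response between jar1-11 and WT limma-voom gave 5, as BCAT4 (adjusted p = 0.0449) and CYP83A1 (adjusted p = 0.0437) were gained. The cause of these changes was not tested.

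All fold changes that turned their sign were uncalled in both settings. For jar1-11 against WT with water these were MYB28 without jar1-11 control 1 or 3 (0.106 and 0.0192; range over libraries left out -0.313 to 0.106), MAM1 without WT control 2 or 3 (0.0021 and 0.0635; -0.316 to 0.0635), MAM3 without WT control 1 or jar1-11 control 3 (-0.071 and -0.0894; -0.0894 to 0.164) and BAT5 without WT control 3 or jar1-11 control 3 (0.0888 and 0.0348; -0.367 to 0.0888). For JAR1-OE with water they were MAM1 against WT with total-read scaling (-0.0349) and without WT control 1 (-0.164) or JAR1-OE control 3 (-0.0166; range -0.164 to 0.193), and BAT5 against jar1-11 without jar1-11 control 2 (0.123; -0.280 to 0.123). Under drought MYB28 in JAR1-OE against WT turned without JAR1-OE drought 2 (-0.0885; -0.0885 to 0.634). The MYB76 difference of response between jar1-11 and WT turned with limma-voom (0.260) and without WT drought 2 (0.716), jar1-11 control 1 (0.024), jar1-11 control 2 (0.0151) or jar1-11 drought 1 (0.0253; range -0.510 to 0.716).

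The replicate numbers did not pair the libraries: same-numbered drought and control libraries had correlations of their deviations of -0.084 to 0.114, and over all 45 same-numbered pairs of groups -0.282 to 0.182, with 8 over 0.1. With the number as a replicate block the genes called were 5 for drought in JAR1-OE, 7 for jar1-11 against WT and 7 for JAR1-OE against WT under drought; no other call of the 10 genes changed. Of the 71 tested genes of the other lists, 26 were called under drought in JAR1-OE, 45 in jar1-11 and 42 in WT. Of these, 9, 9 and 11 lost their call in at least 1 setting, and 10, 7 and 10 uncalled genes gained one. Beside these counts, 14.1% of all genes tested rose and 15% fell in JAR1-OE, 28.7% and 29.7% in jar1-11, and 18.1% and 21.1% in WT. Total-read scaling moved the median of all genes by over 0.1 in 3 comparisons, to -0.177 for jar1-11 against WT under drought (main -0.035), -0.184 for the difference of response between jar1-11 and WT (main -0.023) and 0.195 for that between JAR1-OE and jar1-11 (main 0.036), with 8, 4 and 10 genes called. At 1 to 22 reads a library for MYB76 and 0 to 42 for CYP79F2, changes of these genes were at the edge of what the depth can show.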

Other observations

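Genes of the indolic glucosinolates, which are made from tryptophan by a parallel branch, changed in both directions. Of 17 tested, 3 rose and 2 fell in JAR1-OE (14.1% of all genes higher, 15% lower), 4 rose and 5 fell in jar1-11 (28.7% and 29.7%), and 4 rose and 6 fell in WT under drought (18.1% and 21.1%). Their difference from the 10 aliphatic genes was not tested. UGT74B1, a glucosyltransferase gene, was among those with a course like that of the aliphatic genes, at -1.83 ± 0.22 in jar1-11 and -1.51 ± 0.22 in WT, with a response in JAR1-OE that exceeded that in WT by 1.70 ± 0.30 (adjusted p = 0.00293) and that in jar1-11 by 2.03 ± 0.31 (edgeR quasi-likelihood test). CYP79B3, which starts the branch, changed by -3.54 ± 0.44 in jar1-11 and -1.53 ± 0.37 in WT and did not pass in JAR1-OE (-0.46 ± 0.34), whereas its partner CYP79B2 rose in jar1-11 by 2.36 ± 0.63, a call lost without jar1-11 drought 2 (adjusted p = 0.0690). CYP81F1 rose in all 3 genotypes, by 2.84 ± 0.52 in JAR1-OE, 4.41 ± 0.56 in jar1-11 and 3.01 ± 0.53 in WT. CYP81F2, which modifies the indole ring, changed by -2.59 ± 0.54 in JAR1-OE and -3.45 ± 0.60 in WT.

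Of 7 tested genes of glucosinolate breakdown, 4 rose and 2 fell in JAR1-OE, 2 rose and 3 fell in jar1-11, and 3 rose and 2 fell in WT. All genes tested gave 14.1% higher and 15% lower in JAR1-OE, 28.7% and 29.7% in jar1-11, and 18.1% and 21.1% in WT. These shares also stand beside the transport and leucine counts below. ESM1 changed by -0.83 ± 0.29 in JAR1-OE (lost without any 1 JAR1-OE library, with total-read scaling and with the replicate block), -5.23 ± 0.35 in jar1-11 and -1.35 ± 0.30 in WT, while NSP5, a nitrile specifier gene, rose by 1.83 ± 0.42, 4.04 ± 0.46 and 1.73 ± 0.42 in JAR1-OE, jar1-11 and WT. Among 6 transport genes 0 rose and 0 fell in JAR1-OE (edgeR), 1 rose and 1 fell in jar1-11, and 0 rose and 2 fell in WT; GTR3 changed by -4.68 ± 0.53 in jar1-11 and -1.93 ± 0.38 in WT. Of 4 leucine synthesis genes related to the elongation enzymes, 0 rose and 2 fell in JAR1-OE, and 1 rose and 2 fell in both jar1-11 and WT; IPMDH2 changed by -0.89 ± 0.22, -2.28 ± 0.26 and -1.25 ± 0.23 in JAR1-OE, jar1-11 and WT.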
